A study of Mus musculus with 6 samples.

Results

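The genes described here encode respiratory complex I, the first enzyme of the mitochondrial respiratory chain, together with factors that help to build it. They were chosen by name, as every non-control probe on the array whose gene name starts with Nduf. This gave 57 of 55681 non-control probes and 42 genes, of which 38 encode subunits (52 probes) and 4, Ndufaf1 to Ndufaf4, encode assembly factors (5 probes). All 42 genes were measured well above background on all 6 arrays and were among the 26177 genes tested. The probe left out, the one for Ndufb5 nearest the start of its transcript, was well above background on 2 DIO arrays and on 0 DIO_CR_WR arrays.

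Complex I takes electrons from NADH and passes them through a flavin and a chain of iron-sulfur clusters to ubiquinone, and it couples this to the pumping of protons across the inner mitochondrial membrane. A matrix arm holds the cofactors and a membrane arm holds the proton pumps. The core subunits are shared with the bacterial enzyme, and in mammals some of them are encoded in the nucleus and the others in mitochondrial DNA. Accessory subunits surround the core and are needed for its stability, while assembly factors bind intermediates and leave before the enzyme is finished. In fat, brown and beige adipocytes are rich in mitochondria, and white adipocytes use respiration to support the turnover of stored lipid.

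The samples are inguinal (subcutaneous) fat from male C57BL/6J mice, 3 arrays titled DIO_CR_WR and 3 titled DIO. DIO_CR_WR mice were put on a high-fat diet (60% of energy) at 2 months of age, kept on it for 1 month, calorie-restricted for about 3 weeks down to the weight of chow-fed mice, and then let regain weight on the high-fat diet. DIO mice stayed on chow during those stages and were given the high-fat diet only over the last one. The protocol uses the name DIO for the former mice and calls the latter controls (CTR), so the names conflict, and grouping was done by title. Ages are labelled as 6 to 11 months, do not overlap between groups and increase in sample order. The labels do not say whether each sample is 1 mouse or a pool, so p-values measure the spread between these samples only.

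Each array held 62976 spots, and none was saturated. The signal at the 75th percentile was 4605 to 4991 in DIO and 6050 to 7126 in DIO_CR_WR, while 68.2 to 79.2% and 51.6 to 65.7% of spots, respectively, were well above background. DIO replicate 1 shared slide 1 with the 3 DIO_CR_WR arrays, and DIO replicates 2 and 3 were on slide 2. Levels below are log2 signals relative to the 75th percentile of the same array. A log2 fold change is the DIO_CR_WR mean minus the DIO mean, given with its standard error (SE) from limma. The level of a probe depends on its sequence as well as on its RNA, so levels are compared between arrays and not between genes.

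Relative to the other genes on the array, complex I transcripts had lower mean levels in the fat of DIO_CR_WR mice than in that of DIO mice. The median log2 fold change of the 42 genes was −0.44, against −0.20 for all genes tested, a shift of −0.24. Of the 42, 41 had a negative log2 fold change (66.3% of all genes tested did), but with arrays scaled to spike-in RNA in place of the 75th percentile 18 of 42 did. That scaling moved the median of all genes to 0.30. Among only those genes at an unadjusted p under 0.05 in either direction, 12.3% were then lower, against 79.9% with the 75th percentile. In both scalings 39 of the 42 lay below the median of all genes, and the shift of the subunits was −0.26. The direction is therefore reported relative to the other genes on the array.

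No single gene passed the test. With limma and Benjamini-Hochberg adjustment over all genes, 0 of the 42 and 0 of 26177 (0%) had an adjusted p under 0.05, and the lowest adjusted p among the 42 was 0.110, for Ndufs6. At an unadjusted p under 0.05, 25 of the 42 were lower and 0 higher in DIO_CR_WR mice, where 21.6% of all genes tested were lower and 5.42% higher. The 3 values of each group did not overlap for 29 of the 42 in the lower direction and for 1, Ndufs5, in the higher direction, against 26.5% and 7.25% of all genes tested. Without DIO replicate 1, 15 of the 42 and 4057 of all genes were called, but the groups then lay on different slides.

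**Figure D1:**
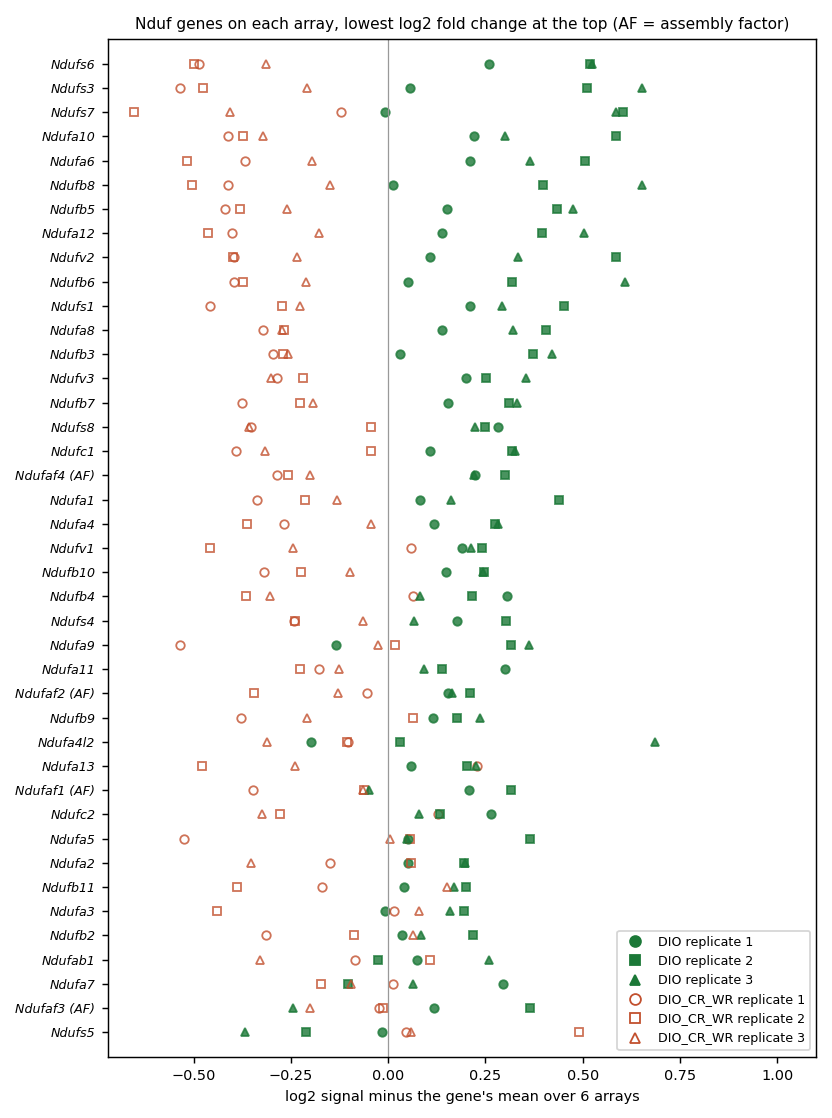
Log2 signal of 41 of the 42 Nduf genes on each array, as the difference from that gene's mean over the 6 arrays (x axis), with genes in order of log2 fold change under 75th percentile scaling. Filled green symbols are the 3 DIO arrays and open orange symbols the 3 DIO_CR_WR arrays. Over all 42 genes the groups do not overlap for 29 that are lower in DIO_CR_WR and for Ndufs5, which is higher; with spike-in scaling all genes move equally on an array and 18 of the 42 have a negative log2 fold change.

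The accessory subunit Ndufs6, which binds zinc near the flavin end of the matrix arm, was furthest from 0 of the 42 genes. Its level was 3.61, 3.87 and 3.88 on the DIO arrays and 2.87, 2.86 and 3.04 on the DIO_CR_WR arrays. Every DIO value was above every DIO_CR_WR value, and the mean level was 1.82-fold higher in DIO mice (log2 fold change −0.87 ± 0.16 SE, adjusted p = 0.110). The probe behind these values lies at chr13:73457324-73457383 (mm9, minus strand), and 30 of its 60 bases are shown to place it in the transcript, with the hexamer AATAAA, a polyadenylation signal, in capitals.
Ndufs6: tcccttgttttgAATAAAggatgctcccac

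The 7 nuclear core subunits of the matrix arm were all lower at an unadjusted p under 0.05 (21.6% of all genes tested were). In all 7 the groups did not overlap (26.5% of all genes tested in the lower direction). Their median log2 fold change was −0.64, a shift of −0.44 from all genes tested. With slide as a block it was −0.46 and 2 of the 7 were at that threshold (5.88% of all genes were lower there with the block), while the median of the 4 other s and v subunits was −0.41. The core was not tested against the other subunits. Ndufs3, a core subunit without a cofactor, measured 3.41, 3.86 and 4.0 on the DIO arrays and 2.82, 2.88 and 3.14 on the DIO_CR_WR arrays (log2 fold change −0.81 ± 0.21 SE). The lowest DIO value was DIO replicate 1, the array that shares a slide with the DIO_CR_WR arrays, and it still lay above all 3 of them.

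Ndufs7 carries the last iron-sulfur cluster before ubiquinone. It measured 3.75, 4.36 and 4.34 on the DIO arrays and 3.64, 3.11 and 3.35 on the DIO_CR_WR arrays, with a log2 fold change of −0.79 ± 0.24 SE. DIO replicate 1 and DIO_CR_WR replicate 1 were close, and with slide as a block the log2 fold change was −0.39.

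Ndufs1, the largest core subunit and the holder of several iron-sulfur clusters, measured 3.50, 3.74 and 3.58 against 2.83, 3.02 and 3.06 (log2 fold change −0.64 ± 0.15 SE). Ndufv2, which holds a cluster beside the flavin, measured 3.84, 4.32 and 4.07 against 3.34, 3.33 and 3.50 (−0.69 ± 0.18 SE). For both genes the 3 DIO_CR_WR arrays lay below all DIO arrays. Ndufs8, which carries a pair of iron-sulfur clusters, measured 3.45, 3.42 and 3.39 against 2.82, 3.13 and 2.81 (−0.50 ± 0.16 SE). Its DIO values were nearly equal across the slides, and the log2 fold change with slide as a block was −0.53.

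Ndufv1 binds the flavin and is the site where NADH is oxidised. Of the core subunits it was nearest to 0, at 3.55, 3.60 and 3.57 on the DIO arrays and 3.41, 2.90 and 3.11 on the DIO_CR_WR arrays (log2 fold change −0.43 ± 0.18 SE, adjusted p = 0.183). The DIO arrays hardly differed, and the spread lay among the DIO_CR_WR arrays, of which replicate 1 was nearest to them. With spike-in scaling Ndufv1 was the core subunit whose log2 fold change changed sign, to 0.070.

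**Figure D2:**
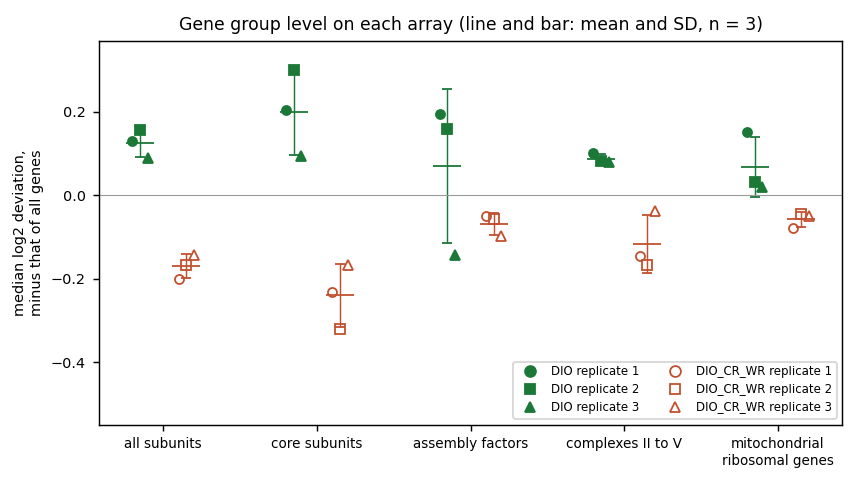
Level of gene groups on each array (y axis: median log2 deviation of the group's genes from each gene's 6-array mean, less the same median for all genes); each symbol is 1 array, and lines and bars give the mean and SD of 3 arrays. All subunits and core subunits separate the 3 DIO from the 3 DIO_CR_WR arrays, whereas the assembly factors on DIO replicate 3 lie at −0.14, below all DIO_CR_WR arrays. The y axis is relative to all genes, so a change of array scaling does not move it.

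The accessory subunits named with the letter a sit on both arms of the enzyme. All 12 had a negative log2 fold change, with a median of −0.36 (a shift of −0.16 from all genes). At an unadjusted p under 0.05, 6 of 12 were lower, against 21.6% of all genes tested. Ndufa10, a membrane-arm subunit with the fold of a nucleoside kinase, measured 3.83, 4.19 and 3.91 on the DIO arrays and 3.20, 3.23 and 3.29 on the DIO_CR_WR arrays (log2 fold change −0.74 ± 0.16 SE). Ndufa6, a small LYR-motif protein that binds the mitochondrial acyl carrier protein, measured 3.86, 4.16 and 4.02 against 3.29, 3.14 and 3.46 (−0.72 ± 0.17 SE). In both genes the 3 DIO_CR_WR values were all below the lowest DIO value.

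Ndufa12, which joins the matrix arm late in assembly, measured 3.66, 3.91 and 4.02 against 3.12, 3.06 and 3.34 (log2 fold change −0.69 ± 0.17 SE). Ndufa8, a cysteine-rich subunit on the side of the intermembrane space, measured 2.85, 3.11 and 3.03 against 2.39, 2.44 and 2.44 (−0.58 ± 0.15 SE). Ndufa13 has the brightest probe of the 42 genes and is also known as GRIM19, a protein linked to cell death. Its groups overlapped, with 4.12, 4.26 and 4.28 on the DIO arrays and 4.29, 3.58 and 3.82 on the DIO_CR_WR arrays (−0.33 ± 0.21 SE), and the highest of the 6 values was a DIO_CR_WR array. With quantile normalization its log2 fold change was 0.033 and with spike-in scaling 0.17.

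Among the 10 membrane-arm subunits named with the letter b, 10 had a negative log2 fold change (median −0.48, shift −0.28). Of these, 6 were lower at an unadjusted p under 0.05 (21.6% of all genes tested were), and in 8 the groups did not overlap (26.5%). For Ndufb8 the log2 fold change was −0.71 ± 0.21 SE, or −0.37 with slide as a block. Ndufb6 measured 3.47, 3.74 and 4.03 on the DIO arrays and 3.03, 3.05 and 3.21 on the DIO_CR_WR arrays (−0.65 ± 0.19 SE). Ndufb3 measured 3.01, 3.35 and 3.40 against 2.69, 2.71 and 2.72 (−0.55 ± 0.16 SE), so that its DIO_CR_WR arrays were nearly equal and its DIO arrays spread upward from them. Ndufb7, a cysteine-rich subunit like Ndufa8, measured 3.55, 3.71 and 3.73 against 3.03, 3.17 and 3.21 (−0.53 ± 0.15 SE).

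The remaining accessory subunits varied more. Ndufv3, at the flavin end of the matrix arm, measured 3.72, 3.77 and 3.87 against 3.23, 3.30 and 3.22 (log2 fold change −0.54 ± 0.14 SE), with a tight cluster in each group. Ndufs4, whose loss in mice gives a model of Leigh syndrome, a mitochondrial disease of the brain, had a smaller log2 fold change of −0.36 ± 0.15 SE. Ndufc1 and Ndufc2, of the membrane arm, had log2 fold changes of −0.50 ± 0.17 SE and −0.32 ± 0.18 SE, and the groups overlapped for Ndufc2.

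Ndufs5 was the exception. This accessory subunit of the membrane arm, also cysteine-rich and facing the intermembrane space, measured 2.31, 2.12 and 1.96 on the DIO arrays and 2.38, 2.82 and 2.39 on the DIO_CR_WR arrays. All DIO_CR_WR values were above all DIO values, the nearest pair being 2.31 and 2.38, and the log2 fold change was 0.40 ± 0.19 SE with an adjusted p of 0.231. With slide as a block it was 0.21. The array holds 1 probe for the gene, at chr4:123389974-123390033 (mm9, minus strand), and 30 of its 60 bases are given because the reading rests on it alone.
Ndufs5: gttttcccctggagagaatatttaaggaaa

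Other members carry an Nduf name with a different or wider role. Ndufa4 was named as a complex I subunit and is now known as a subunit of cytochrome c oxidase. It measured 3.68, 3.84 and 3.85 against 3.30, 3.20 and 3.52 (log2 fold change −0.45 ± 0.16 SE), with no overlap between groups. Ndufa4l2, its paralogue induced by hypoxia, has the dimmest probe of the 42 genes and measured −0.22, 0.011 and 0.67 on the DIO arrays and −0.12, −0.12 and −0.33 on the DIO_CR_WR arrays. Its log2 fold change of −0.35 ± 0.25 SE came from DIO replicate 3, and with slide as a block it was 0.025. Ndufab1, the mitochondrial acyl carrier protein, which also serves mitochondrial fatty acid synthesis, has the next dimmest probe. It measured 0.92, 0.82 and 1.11 against 0.77, 0.96 and 0.52, with overlapping groups and a log2 fold change of −0.20 ± 0.18 SE.

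As reported, without a block for slide, the assembly factors stood nearer to the rest of the array than the subunits did, on few genes. Their median log2 fold change was −0.33, a shift of −0.14 from all genes, against −0.45 and a shift of −0.26 for the 38 subunits. Of the 4 factors, 1 was lower at an unadjusted p under 0.05, and of the 38 subunits 24 were, against 21.6% of all genes tested. By non-overlap the order was not the same. The groups did not overlap in the lower direction for 3 of the 4 factors and 26 of the 38 subunits (26.5% of all genes tested). Ndufaf4, which acts early in assembly of the ubiquinone-binding part together with Ndufaf3, measured 1.80, 1.88 and 1.80 on the DIO arrays and 1.29, 1.32 and 1.38 on the DIO_CR_WR arrays (log2 fold change −0.49 ± 0.13 SE). Its groups were narrow and far apart, and with slide as a block the value was −0.47. Ndufaf3 itself measured 1.36, 1.61 and 1.00 against 1.23, 1.24 and 1.05 (−0.16 ± 0.20 SE), with overlapping groups and its lowest value on DIO replicate 3.

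Ndufaf2 is a relative of Ndufa12 and holds its place until late in assembly. It measured 2.03, 2.09 and 2.04 against 1.82, 1.53 and 1.75 (log2 fold change −0.35 ± 0.15 SE), without overlap. Ndufaf1, part of the membrane complex that builds the proton-pumping arm, measured 2.19, 2.30 and 1.93 against 1.63, 1.92 and 1.92 (−0.32 ± 0.17 SE), and its groups were separated only by the last digit shown. With spike-in scaling all 4 factors had log2 fold changes above 0, from 0.0047 for Ndufaf4 to 0.34 for Ndufaf3.

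On each array the median deviation of the subunits minus that of the factors was −0.07, −0.0014 and 0.23 for DIO and −0.15, −0.11 and −0.05 for DIO_CR_WR, and DIO replicate 1 lay within the DIO_CR_WR range. The lower median of the subunits was thus not separated from the spread between arrays. With quantile normalization the medians differed by 0.0011, and relative to genes of like brightness by −0.03. With slide as a block the shift from all genes was −0.28 for the subunits and −0.25 for the factors.

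**Figure D3:**
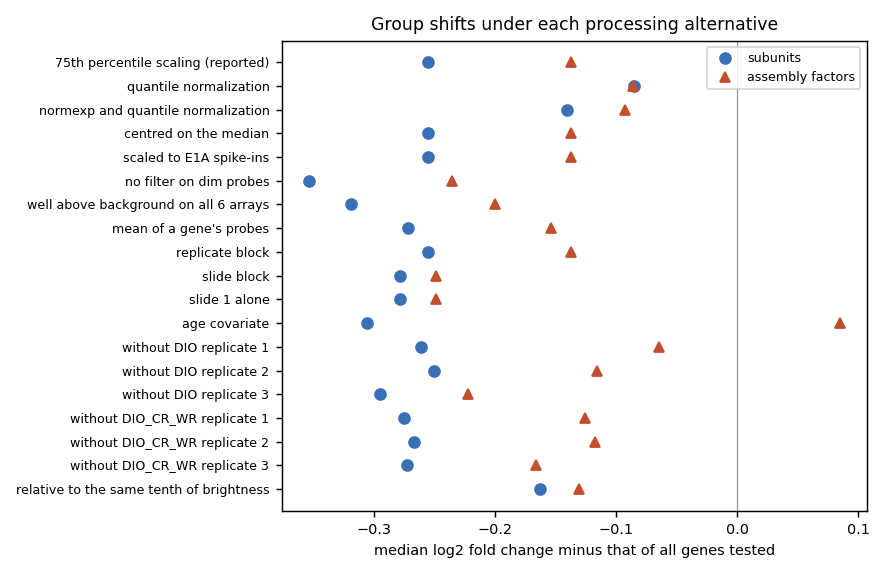
Median log2 fold change of the 38 subunits (blue circles) and the 4 assembly factors (orange triangles) minus the median of all genes tested (x axis), under each processing alternative (rows). The subunits lie below 0 in every alternative drawn, from −0.085 with quantile normalization to −0.35 with no filter on dim probes; the assembly factors lie above 0, at 0.085, with age as a covariate, and absolute values under spike-in scaling have a higher common level that this axis removes.

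Probe brightness differed between the classes. The mean signal over 6 arrays had a median of 3.32 for the subunits (range −0.02 to 4.06) and of 1.73 for the factors (range 1.25 to 1.98). When all genes tested were split into 10 equal bins by this mean, 34 of the 42 genes, all of them subunits, were in the brightest bin (2.60 to 5.46). All genes of that bin had a median log2 fold change of −0.33, with 33.6% lower at an unadjusted p under 0.05. The 34 subunits had a median of −0.50, 23 of them (67.6%) were lower at that threshold, and 26 lay below the median of the bin.

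Relative to genes of the same bin, the median shift was −0.16 for the subunits and −0.13 for the factors, where relative to all genes it was −0.26 and −0.14. Over the 42 genes, log2 fold change and brightness had a Pearson correlation of −0.40 and a Spearman correlation of −0.47. Over all 26177 genes the values were 0.07 and 0.11. These describe probes that share the same arrays, and genes are not independent replicates. In the brightest bin with slide as a block, the 34 subunits had a median of −0.38 and all genes −0.21.

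**Figure D4:**
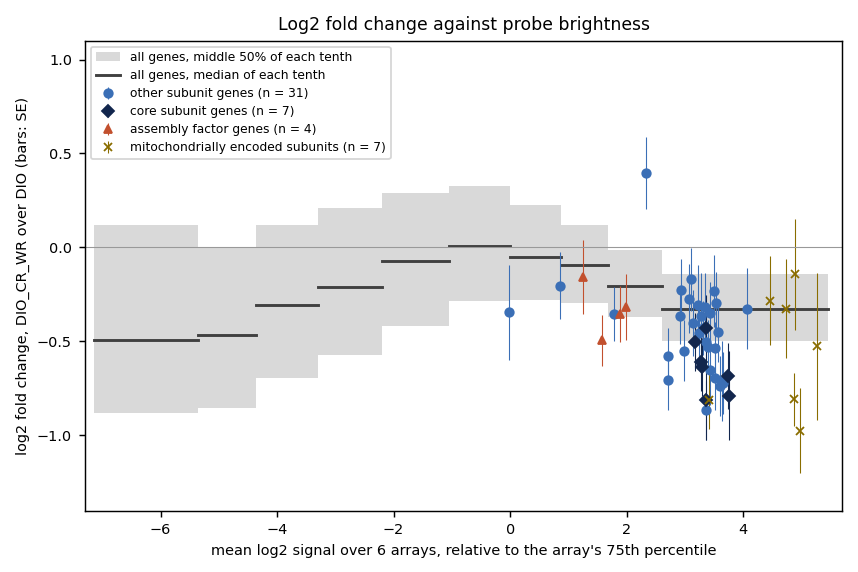
Log2 fold change under 75th percentile scaling (y axis, bars are SE) against mean log2 signal over 6 arrays (x axis) for core subunits, other subunits, assembly factors and mitochondrially encoded subunits. Black lines and grey boxes give the median and the middle 50% of all genes tested in each of 10 bins of brightness. The core subunits lie between −0.43 and −0.81, below the −0.33 median of the brightest bin, and the assembly factors lie in dimmer bins; with spike-in scaling the whole plot moves up, and the median of all genes is 0.30.

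The other protein-coding genes of the pathway were read from lists chosen by their role. All 7 subunits encoded in mitochondrial DNA, which form the proton-pumping membrane arm, were tested, with a median log2 fold change of −0.53. At an unadjusted p under 0.05, 3 of the 7 were lower, against 21.6% of all genes tested. All 7 probes were in the brightest bin, where 33.6% of all genes were lower at that threshold and the median was −0.33. ND5 measured 4.99, 5.68 and 5.69 on the DIO arrays and 4.50, 4.45 and 4.49 on the DIO_CR_WR arrays (−0.98 ± 0.23 SE). ND2 measured 5.39, 5.18 and 5.27 against 4.46, 4.43 and 4.54 (−0.81 ± 0.14 SE), and for ND3 the log2 fold change was −0.81 ± 0.15 SE. ND1, ND4, ND4L and ND6 had values of −0.14 to −0.53 with overlapping groups. DIO_CR_WR replicate 2 lay within the DIO range for ND4 and above all DIO arrays for ND1 and ND6, where the other DIO_CR_WR arrays lay below them.

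For 5 complex I genes the array carries an older name, so the name rule did not reach them, and the probe's accession or synonym tied them to their current symbols. Ndufaf5, which modifies Ndufs7 during assembly, differed by a log2 fold change of −0.84 ± 0.19 SE, and Ndufaf6, which acts early in assembly, one of −0.54 ± 0.21 SE; both were at an unadjusted p under 0.05 with no overlap. Ndufaf7, a methyltransferase that acts on the growing enzyme, had −0.16 ± 0.14 SE, Ndufaf8, the partner of Ndufaf5, had 0.08 ± 0.19 SE, and the dim probe for Ndufb1 had −0.35 ± 0.20 SE. The factors under older names thus ran from near 0 to beyond the median of the subunits.

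Of 11 assembly genes with other names, 10 were tested and 3 were lower at an unadjusted p under 0.05, near the 21.6% of all genes tested. Their median log2 fold change was −0.15, which is 0.049 above that of all genes. Ecsit, which works with Ndufaf1, had a mean of 3.01 ± 0.10 (SD, n = 3) on the DIO arrays and 2.39 ± 0.08 on the DIO_CR_WR arrays (−0.62 ± 0.14 SE). Dmac2 and Tmem70 had −0.45 ± 0.13 SE and −0.39 ± 0.14 SE. Timmdc1 and Tmem126b, which belong to the same membrane complex as Ndufaf1, had 0.25 ± 0.15 SE and 0.14 ± 0.17 SE, while Acad9 had −0.15 ± 0.17 SE. The partners of Ndufaf1 did not share a direction.

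Among 7 regulators of respiratory genes, 2, both coactivators, were lower at an unadjusted p under 0.05, a share near the 21.6% of all genes tested. Ppargc1a (PGC-1alpha) measured 1.19, 1.26 and 0.89 on the DIO arrays and 0.27, 0.26 and −0.05 on the DIO_CR_WR arrays (log2 fold change −0.96 ± 0.18 SE, adjusted p = 0.110). Ppargc1b (PGC-1beta) had −0.82 ± 0.27 SE. The DNA-binding factors Nrf1, Esrra, Tfam and Yy1 had values of −0.23 to −0.40, and Gabpa had 0.29 ± 0.15 SE, none at that threshold.

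Complex I was not alone in this. The lists compared here were picked by the start of the gene name, so they can hold genes that are not part of the complex or ribosome. The 47 tested genes with names of complexes II to V had a median log2 fold change of −0.41 (shift −0.21). Of these 46.8% were lower at an unadjusted p under 0.05 (21.6% of all genes tested were), and Atp5sl, the array's name for Dmac2, is among them. The 76 genes named as mitochondrial ribosomal proteins had −0.31 (shift −0.11). The 94 with names of Rpl or Rps and a digit, a pattern that also fits ribosomal S6 kinases, had −0.34 (shift −0.15). Relative to genes of the same bin of brightness, the median shifts were smaller. They were −0.11 for complexes II to V, −0.022 for the mitochondrial ribosomal list and −0.067 for the Rpl and Rps list. For the 42 complex I genes it was −0.15. The difference between complex I and these lists was not tested. By Pearson correlation over the 6 arrays, the named genes most like the mean profile of the 42 were Pick1 (0.9996), Rps25 (0.9985) and Cpeb3 (0.9985). They were picked on 6 points from the 26177 genes after the members and names of clone, accession, Gm, LOC or Rik type were left out. Among the members themselves, the correlation with the mean of the other members ran from 0.998 for Ndufs6 to −0.82 for Ndufs5.

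Markers of other cell types also differed in level between the groups. All 8 adipocyte markers were well above background on all arrays, with a median log2 fold change of −0.21, near that of all genes. All 8 lay in the brightest bin, however, and their median was above the −0.33 of that bin. The 7 brown and beige adipocyte markers had a median of −0.71, and 3 of 7 were lower at an unadjusted p under 0.05 (21.6% of all genes tested were). Their summed level was 36.0 to 53.5 in DIO against 27.5 to 32.5 in DIO_CR_WR (linear units, 1 being the array's 75th percentile). The 9 skeletal muscle markers had a median of −0.54, 4 of 9 were lower at that threshold, and their sum was 162 to 199 against 115 to 139. Bright genes weigh most in such sums. By the median deviation of each list, less that of all genes, the groups overlapped. For the brown and beige markers DIO replicate 3 was at −0.12, below DIO_CR_WR replicates 1 (−0.05) and 2 (−0.07). For the muscle markers it was at −0.099, below DIO_CR_WR replicate 3 (−0.091). None of the brown, beige or muscle markers was at background on any array. Both tissues are rich in complex I, and the part of these cells in the complex I values was not tested. In bulk RNA, fewer cells of a type and less RNA per cell cannot be told apart.

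Leukocyte markers had positive medians. The 8 macrophage markers had a median log2 fold change of 0.24, with sums of 49.2 to 76.5 in DIO against 54.9 to 66.3 in DIO_CR_WR, which overlap, and the 6 T cell markers had 1.02, with sums of 0.74 to 1.51 against 1.34 to 2.56. Of the B cell markers 2 of 4 and of the epithelial markers 4 of 5 were tested, and none of these had a summed level above 0.88.

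Slide went with the groups only in part. The signal at the 75th percentile and the share of spots well above background, given above, did not overlap between the groups. Their part in the complex I values was not tested. DIO replicate 1 was the lowest of the DIO arrays for 30 of the 42 genes, and it was above all 3 DIO_CR_WR arrays, its neighbours on slide 1, for 32. No share over all genes was worked out for these counts, so they are not read as particular to complex I. With slide as a block the median log2 fold change was −0.37, and it was negative for 40 of the 42, against 15753 of the 26177 genes tested. With that block 10 of the 42 were lower at an unadjusted p under 0.05 against 5.88% of all genes, and 0 passed adjustment. Those 10 were Ndufs6, Ndufa10, Ndufb5, Ndufa11, Ndufaf4, Ndufa6, Ndufv3, Ndufs1, Ndufs8 and Ndufa8. This estimate rests on 1 DIO array.

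For 10 of the 42 genes more than 1 probe was kept, so that their values could be read again on the same RNA. These gave 18 pairs of probes, of which 16 had log2 fold changes of the same sign. In the 7 pairs with both probes above a mean level of 2, all 7 had the same sign, with a median absolute difference of 0.20. When every probe was tested on its own, 30 of the 56 were lower at an unadjusted p under 0.05 (20.8% of all 38457 probes were), 0 were higher (5.34% of all probes were) and 54 had a negative log2 fold change.

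Ndufb5, a single-pass membrane-arm subunit, gave the probes that disagreed. Its brightest probe, from base 614 of the transcript (chr3:32650097-32650156, mm9, plus strand), measured 2.86, 3.15 and 3.19 on the DIO arrays and 2.29, 2.33 and 2.45 on the DIO_CR_WR arrays (log2 fold change −0.71 ± 0.16 SE). The probe from base 753 (chr3:32650236-32650295) is dimmer and measured 1.31, 0.22 and 0.25 against 0.80, 1.08 and 0.87 (0.32 ± 0.32 SE), with DIO replicate 1 the highest of all. A dim probe from base 514 (chr3:32647763-32647822) had −0.74 ± 0.22 SE. The first and the last of these went with the other subunits and the probe furthest along the transcript did not. Shown are 30 bases of each, with AATAAA in capitals; it was found in the brightest probe and lies before the bases of the discordant one.
Ndufb5 from base 614: tgggaagaaatgAATAAAtactctgtattt
Ndufb5 from base 753: cagggtagtaatgaaacctggaggtctggg
Ndufb5 from base 514: tgagccaccagacatgaatacagcaagtac

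Ndufb11, another membrane-arm subunit, has a pair of probes that overlap by 55 of 60 bases, yet the array's own annotation places one on chromosome X (chrX:20192453-20192512, minus strand) and the other on chromosome 5 (chr5:123516746-123516805, plus strand), both in mm9. The former measured 3.11, 3.27 and 3.24 on the DIO arrays and 2.90, 2.69 and 3.22 on the DIO_CR_WR arrays (log2 fold change −0.27 ± 0.19 SE). The latter measured 3.16, 3.42 and 3.40 against 2.58, 2.63 and 2.79 (−0.66 ± 0.16 SE). On DIO_CR_WR replicate 3 they read 3.22 and 2.79, the widest gap between them. With a near-identical copy in the genome, the RNA that each probe bound is uncertain. The first 30 bases of each are shown with the shared run in capitals.
Ndufb11 on chromosome X: tcatcCGCTGCTTGTTATTTACCTGGTTCC
Ndufb11 on chromosome 5: CGCTGCTTGTTATTTACCTGGTTCCTCAGA

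The other pairs differed in size and not in sign. Ndufa5 had −0.31 ± 0.22 SE from its brightest probe and −0.67 ± 0.17 SE from one nearer the end of the transcript, and Ndufa3 had −0.23, −0.55 and −0.77 from 3 probes. Ndufb6 had −0.65 and −0.47, and Ndufaf4 −0.49 and −0.52. For Ndufa3 and Ndufa5 the brightest probe, which stands for the gene in the counts above, gave the value nearest 0. AATAAA was present in 13 of the 56 probes, 1 per gene, and those had a median log2 fold change of −0.53, against −0.41 for the 43 without it. Base composition of the probe and log2 fold change had a Pearson correlation of −0.11 over the 56 probes.

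**Figure D5:**
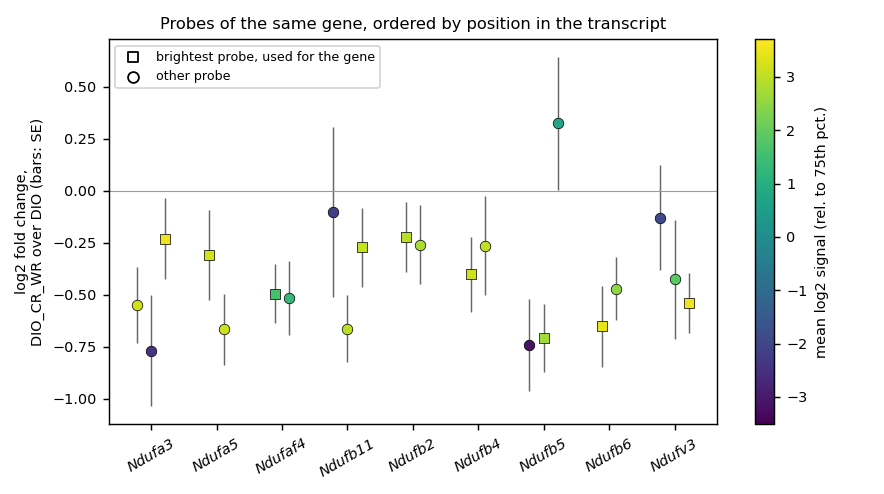
Log2 fold change under 75th percentile scaling (y axis, bars are SE) of each kept probe of 9 of the 10 genes with more than 1, in order of position in the transcript and coloured by mean log2 signal; squares are the brightest probe, used for the gene, and circles the others. Of the 18 pairs within the 10 genes, 16 have the same sign, and the Ndufb5 probe at 0.32 stands apart from the others of its gene at −0.71 and −0.74.

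Because most members had a like profile over these arrays, their promoters were read for motifs of factors known to act on respiratory genes. RefSeq promoters (GRCm38.p6, 250 bases before to 50 after the start) were found for 37 of the 42 genes, 39 promoters in all, and were searched on both strands. The NRF1 motif (GCGCA, any base, GCGC) was in 9 of 39 (23.1%), against 4.60% of all 32851 promoters of the same length. The YY1 motif AAGATGGCG was in 5 (12.8%) against 1.40%, the ETS motif CCGGAAG, bound by GABPA, in 5 (12.8%) against 8.86%, and the ERR motif TCAAGGTCA in 0 against 0.423%. No motif searched contains another. Member promoters also had more bases G and C, with a median of 59.3% against 52.7%, which bears on motifs made of these letters. They had more CG pairs too, with a median of 20 per promoter against 7 in all promoters. The NRF1, YY1 and ETS motifs each contain CG, and the part of base composition in these shares was not tested.

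The NRF1 motif did not go with the size of the difference. The 8 genes with it had a median log2 fold change of −0.45 and the 29 without it −0.45. It was found upstream of Ndufs6, the gene with the most negative value, and of Ndufs5, the gene with the positive one, and in a pair of copies upstream of Ndufb4, which had −0.40 ± 0.18 SE. Ndufs3 has the ETS motif instead. The 100 bases before the start are printed for these 4 genes, all on the minus strand and written 5′ to 3′ along the gene, with the motif in capitals on whichever strand it was matched. They lie at chr13:73328483-73328582, chr4:123718187-123718286, chr16:37654369-37654468 and chr2:90904722-90904821 of GRCm38.p6, in the order given.
Ndufs6: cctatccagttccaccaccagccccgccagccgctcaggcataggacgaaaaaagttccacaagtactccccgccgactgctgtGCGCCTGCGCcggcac
Ndufs5: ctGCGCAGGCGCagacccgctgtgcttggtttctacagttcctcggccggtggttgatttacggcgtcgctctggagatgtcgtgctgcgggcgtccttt
Ndufb4: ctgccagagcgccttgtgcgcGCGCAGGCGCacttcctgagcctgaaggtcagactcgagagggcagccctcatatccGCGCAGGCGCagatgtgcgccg
Ndufs3: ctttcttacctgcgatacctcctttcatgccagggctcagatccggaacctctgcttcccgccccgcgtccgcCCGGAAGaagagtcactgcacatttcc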

How the data were processed

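RNA from 6 inguinal fat samples, 3 titled DIO and 3 titled DIO_CR_WR, was labelled with Cy3 from 0.5 µg and put on Agilent 1-colour arrays, per the labels. The deposited values are spot intensities, which Feature Extraction corrected for background within each array and did not normalize between arrays, per the file headers. Its version is 10.7.3.1 in the file headers and 10.7.1.1 in the submitters' processing notes. The deposited flags of each spot (above background, saturated, outlier) were used too. The 18 value columns of a series-wide table carry names that differ from the titles and were left aside.

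With R 4.3.3 and limma 3.58.1, 3671 control spots were left out, outlier-flagged spots were treated as missing, and the 75th percentile of each array was subtracted on the log2 scale. Of 38791 probes well above background on at least 3 of 6 arrays, 38457 had a spot without an outlier flag on every array. The brightest of these for each gene name gave 26177 genes. Groups were compared by limma's two-sided moderated test (lmFit and eBayes), adjusted by Benjamini-Hochberg across all genes (threshold 0.05). The script was tested on simulated data. The number of arrays limits the precision. Probe positions are the array files' own, on mm9, and no gene annotation of that build was used, so exons and UTRs are not assigned.

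Members and lists were chosen with earlier results of these data known. Named with values were the core subunits, all Ndufaf genes, Ndufa4, Ndufa4l2, Ndufab1, the 10 other subunits of smallest p, the 2 brightest and 2 dimmest, and members with a positive value or with probes of opposite sign. Ndufa11, Ndufb8, Ndufs4, Ndufc1, Ndufc2, Ndufb4, Ndufb11, Ndufa3 and Ndufa5 fall outside this rule and were named after their values were seen. Of the genes the rule names, 1 is not reported here, and it stays in all tests and counts. Alternatives were other normalizations, scalings, filters, probe choices, variance models and blocks, age as a covariate, and leaving out each array.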

Additional observations from a re-analysis of the deposited data

How the results depend on the processing

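The count of complex I genes lower at an unadjusted p under 0.05 was 25 (59.5%) as reported, where 21.6% of all genes tested were. With quantile normalization it was 8 (19.0%, against 14.9% of all genes). With normexp and quantile normalization it was 7 (16.7% against 16.3%), so there it lay near the share of all genes. Spike-in scaling gave 0 (2.95% of all genes), slide as a block 10 (5.88%) and age as a covariate 15 (35.7% against 19.5%). When 1 array was left out the count was 15 to 22, against 9.15 to 28.7% of all genes. Replicate numbers are not stated to pair the samples, and deviations of same-numbered arrays correlated at −0.0083, −0.12 and −0.24. With replicate number as a block 19 were lower (18.8% of all genes were) and 0 passed adjustment. The number of complex I genes called was 0 to 15 and of all genes 0 to 4057 when 1 array was left out (15 and 4057 without DIO replicate 1). Of all genes, 5 were called with normexp and quantile normalization, 7 with spike-in scaling, 63 with signal required on all 6 arrays, 26 with a trended and robust variance, and 0 of these were complex I genes.

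The median shift of all 42 genes, −0.24 as reported, was −0.085 with quantile normalization, −0.12 with normexp and quantile normalization, −0.34 without a filter, −0.31 with signal on all 6 arrays, −0.15 against the same bin of brightness, and −0.28 to −0.24 when 1 array was left out. For the subunits, −0.26 as reported, the values in the same order were −0.085, −0.14, −0.35, −0.32, −0.16 and −0.30 to −0.25, and −0.31 with age. The shift of the assembly factors, −0.14 as reported, was 0.085 with age as a covariate and −0.22 to −0.06 when 1 array was left out. With slide as a block it was −0.25, and that of the subunits was −0.28. Subunits minus factors, −0.12 as reported, was 0.0011 with quantile normalization, −0.39 with age and −0.20 to −0.07 when 1 array was left out. Age labels follow the sample order and do not overlap between groups.

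Over all 42 genes, 41 had a negative log2 fold change as reported. With quantile normalization 33 did (15134 of the 26177 genes tested), with spike-in scaling 18 (6744) and with age as a covariate 37 (17871). Among only the genes named by the rule, single genes changed sign in 13 cases. With spike-in scaling the log2 fold changes were 0.070 for Ndufv1, 0.0047 for Ndufaf4, 0.15 for Ndufaf2, 0.18 for Ndufaf1, 0.34 for Ndufaf3, 0.049 for Ndufa4, 0.15 for Ndufa4l2, 0.30 for Ndufab1 and 0.17 for Ndufa13. Ndufa13 was 0.033 with quantile normalization, Ndufa4l2 0.025 with slide as a block and on slide 1 alone, and Ndufaf3 0.25 with age. The cause was not tested. In 441 other combinations of a named gene and an alternative the direction and the side of the threshold held, and in 14, all without DIO replicate 1, the gene passed.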
